A study of Mus musculus with 6 samples.

Results

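The features described here were 8391 transcribed intervals listed antisense to protein-coding genes of the mouse and deep inside their bodies, 24.3% of the 34518 features of the authors' deposited table. Each overlapped the body of a GENCODE M21 protein-coding gene only on the opposite listed strand, and some ran past the end of that gene. None overlapped a GENCODE M21 exon of a long noncoding RNA, small RNA or protein-coding gene on its own listed strand, and each lay more than 2 kb from every protein-coding gene start. Before the distance was applied 9664 antisense features were present, so that 1273 lay closer to a start. The 8391 features carried only an assembler identifier, with 0 gene symbols, and are named below by that identifier and by the host gene on the other strand. They fell in 3304 host genes, of which 1610 held 1 feature and 1694 held more. MSTRG.44319 in Nanos1, at 2005 bp just inside it, had a log2 fold change of -0.12 per the authors' deposited table, and MSTRG.11507 in Aebp1, at 2000 bp just outside it, had 0.49.

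The libraries came from the left atria of adult mice of the outbred CD1 stock. One group of 3 overexpressed FOG2 (FOG2_OE) and the other 3 were wild type (WT). Animals of both groups, called DTG and NTG in the labels, had been kept without doxycycline for 1 week, so that withdrawal of the drug did not differ between them. The labels name neither the promoter that drove the overexpression nor the cells it reached, and do not say whether each library came from 1 animal.

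FOG2, encoded by Zfpm2, is a zinc finger cofactor that binds GATA transcription factors and changes their activity at target genes in the developing and adult heart. Antisense transcripts are copied from the strand opposite to a gene. They can start at enhancers inside introns, at bidirectional promoters or at promoters of their own, often lack a poly(A) tail, and are usually scarce. The libraries had been depleted of ribosomal and polyadenylated RNA, which leaves such transcripts. The kit named in the labels, TruSeq RNA v2, does not mark strand. "Antisense" therefore means the strand listed in the table, and reads of a feature cannot be told apart from unspliced or unpolyadenylated RNA of its host gene.

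Few of these features had an annotated start of their own. Of 32851 RefSeq promoter windows on GRCm38.p6, each 300 bases long with 250 before and 50 after a transcript start, 122 overlapped 111 of the features. For 52 features a window lay on the feature's listed strand, and for 12 the listed 5′ end was within 100 bases of that start. Of those 52, 3 were higher in FOG2_OE and 7 lower, with adjusted p under 0.05, per the authors' deposited table, where 1.16% of all 34518 features were higher and 4.65% lower. The clearest cases are MSTRG.53424 inside Gm37240 and MSTRG.90605 inside Frmpd3, both lower, whose listed 5′ ends lay 4 bases before and 23 bases after the starts of the long noncoding RNAs Gm31210 and Gm32113. MSTRG.66127, higher in FOG2_OE, instead ran across a start of its host 2900026A02Rik on the other strand. The windows are printed to show where the listed feature begins, 5′ to 3′ on the strand of the named transcript, with the bases inside the feature in capitals. In the Kcnip4 window, shown because that host held the most calls, the capitals mark a motif match instead.

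Gm31210, chr3:85341871-85342170, plus strand: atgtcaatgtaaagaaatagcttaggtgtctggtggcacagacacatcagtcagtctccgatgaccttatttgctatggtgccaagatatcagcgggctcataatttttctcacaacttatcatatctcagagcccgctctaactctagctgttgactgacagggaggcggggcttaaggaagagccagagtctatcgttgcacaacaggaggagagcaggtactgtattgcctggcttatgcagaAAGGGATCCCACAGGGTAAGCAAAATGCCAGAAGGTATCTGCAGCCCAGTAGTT

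Gm32113, chrX:140385816-140386115, minus strand: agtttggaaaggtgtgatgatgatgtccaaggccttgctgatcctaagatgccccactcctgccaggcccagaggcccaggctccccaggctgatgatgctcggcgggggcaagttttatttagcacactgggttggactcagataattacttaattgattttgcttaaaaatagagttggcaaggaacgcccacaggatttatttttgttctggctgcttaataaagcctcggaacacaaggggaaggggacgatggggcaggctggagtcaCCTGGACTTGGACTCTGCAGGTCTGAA

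2900026A02Rik, chr5:113163264-113163563, minus strand: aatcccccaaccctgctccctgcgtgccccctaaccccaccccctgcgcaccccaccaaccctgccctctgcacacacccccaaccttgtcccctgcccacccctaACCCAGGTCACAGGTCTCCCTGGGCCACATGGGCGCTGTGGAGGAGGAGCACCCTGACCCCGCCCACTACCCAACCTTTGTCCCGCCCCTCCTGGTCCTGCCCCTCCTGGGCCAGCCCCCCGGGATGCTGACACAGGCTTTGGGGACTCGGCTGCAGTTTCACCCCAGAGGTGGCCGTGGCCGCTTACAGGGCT

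Kcnip4, chr5:49285610-49285909, minus strand: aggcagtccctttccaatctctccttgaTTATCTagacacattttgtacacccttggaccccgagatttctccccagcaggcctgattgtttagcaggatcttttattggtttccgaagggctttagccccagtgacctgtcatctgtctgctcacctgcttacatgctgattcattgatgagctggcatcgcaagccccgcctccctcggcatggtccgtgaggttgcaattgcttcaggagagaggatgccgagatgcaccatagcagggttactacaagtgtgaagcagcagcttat

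The Gm31210 window held 54 bases of MSTRG.53424, the Gm32113 window 27 of MSTRG.90605 and the 2900026A02Rik window 194 of MSTRG.66127. A pair of short motifs were searched on both strands: AGATAA, which GATA factors bind, and AGGTGTGA, which T-box factors bind. AGATAA was present in 11.2% of all RefSeq windows and in 14 of the 122 that overlapped a feature. AGGTGTGA was present in 1.27% of all windows and in 6 of the 122. The Gm32113 window held 1 match to each, the Kcnip4 window 1 match to AGATAA in its reverse form, and the other printed windows none. The second RefSeq window of Kcnip4, not printed, held neither. Among host genes with 3 or more called features, 22 of 35 had a window, and of their 33 windows 2 held AGATAA and 0 held AGGTGTGA. A match is a string of letters and was not tested for binding.

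Lower calls outnumbered higher ones among the antisense features, in about the proportion of the whole table. By the authors' deposited table, 79 were higher in FOG2_OE and 359 lower (adjusted p under 0.05, likelihood ratio test adjusted by Benjamini-Hochberg over all 34518 features). The called share was 5.22%, with 5.81% over all features. The higher calls were 0.94% of the antisense features, with 1.16% over all features, and the lower calls 4.28%, with 4.65%. Their median log2 fold change per the authors' deposited table was -0.21, and that of all features was also -0.21. The calls that were made were large. Called features had a median log2 fold change of 3.17 (range 0.74 to 12.08) when higher and of -3.60 (range -10.08 to -0.91) when lower per the authors' deposited table. In whole tissue such as this, fewer cells of a type and less RNA per cell cannot be told apart.

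How firmly a feature was called depended on the test's setting. With log2 ratios centred so that the median ratio over all features was 1, 107 antisense features were called higher and 257 lower, where 1.62% and 3.47% of all features were. The authors' test treats each feature's dispersion as known. The same statistic was also referred to F with 10 residual degrees of freedom, an assumed value, where 6 libraries in 2 groups leave 4. With 10 it called 12 higher and 70 lower, against 0.203% and 1.07% of all features, and 82 of the 438 calls remained. With 4 residual degrees of freedom 0 features were called, 0.0% of the table, while 97 higher and 425 lower antisense features had an unadjusted p under 0.05. At an adjusted p under 0.01 the authors' deposited table called 37 higher and 202 lower, against 0.608% and 2.69% of all features. Among the 1730 antisense features with a mean fitted value of at least 20, 27 were higher and 123 lower, against 1.98% and 7.86% of all 8176 features that passed.

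Most antisense features were scarce. The 6 sample columns held values fitted by the authors' model, proportional to one another within a group, so that they show group levels and library size and no spread between replicates. The median fitted value was 6.73 per library, in libraries of 71170626 to 84895513 effective reads, and 79.4% of the antisense features lay under 20. The standard error of a log2 fold change, solved from the deposited likelihood ratio, had a median of 0.77 over all antisense features and 0.69 over the called ones. In all, 109 features stood at 0 in FOG2_OE, 99 of them called, and 38 stood at 0 in WT, 21 of them called. For 190 of the 438 calls the lower group held at most 3 fitted counts over its libraries.

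**Figure D1:**
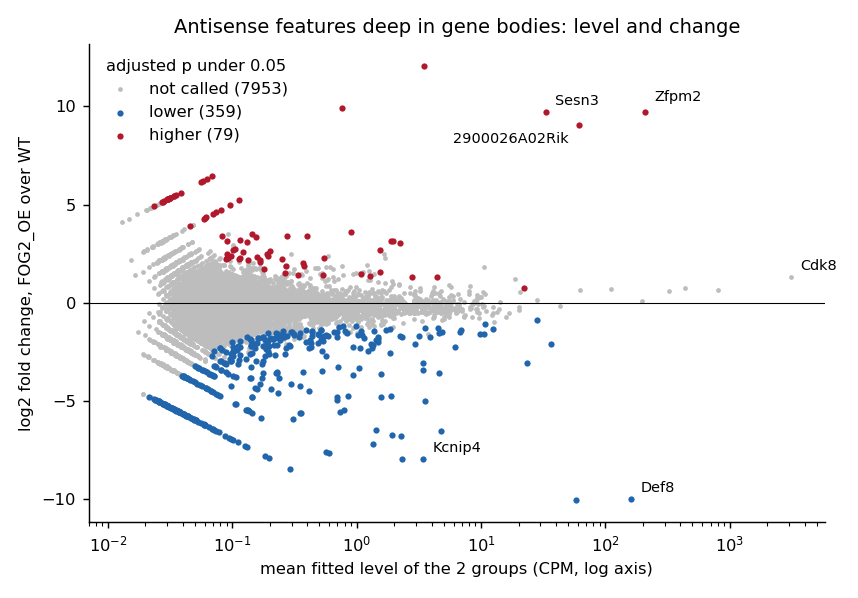
Log2 fold change of FOG2_OE over WT per the authors' deposited table (vertical axis) against mean fitted level in CPM (horizontal log axis) for the 8391 antisense features, with the 79 called higher and 359 called lower in colour. Most calls lie at low levels, and the Zfpm2, Sesn3 and 2900026A02Rik features stand apart at high level and fold.

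The class of feature went with the share called. Features confined to introns of the host, 4268 of the 8391, gave 47 higher and 241 lower calls (6.75%) per the authors' deposited table, at a median log2 fold change of -0.29. The 4123 that overlapped an exon of the host on the other strand gave 32 higher and 118 lower calls (3.64%), with a median of -0.17 per the authors' deposited table. Antisense features within 2 kb of a gene start gave 18 higher and 35 lower calls of 1273 (4.16%), and intronic features on the host's own strand outside Hdac9 gave 3 and 9 of 543 (2.21%). Features outside protein-coding bodies, without those on a same-strand exon of a long noncoding or small RNA, gave 217 higher and 1104 lower calls of 21810 (6.06%). These shares were not tested against each other. Length and abundance differed between the classes too: intron features had a median mean fitted value of 5.46 and those over coding exons one of 10.6. Features under 200 bp were called in 3.0% of cases and those of 10 kb or longer, 68 in all, in 32.4%. Features with a mean fitted value under 10 were called in 4.10% of cases and those of at least 1000, 27 in all, in 33.3%. The median length was 187 bp in introns, 318 bp over coding exons and 210 bp over UTR exons.

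**Figure D2:**
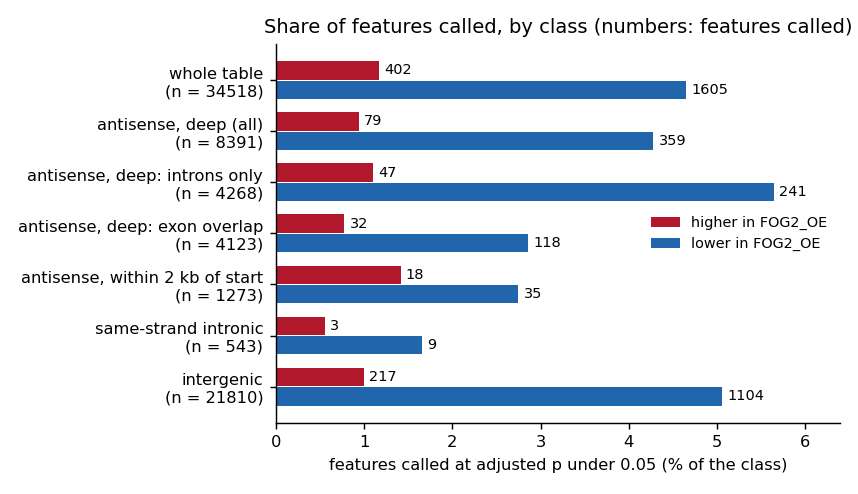
Share of features called higher and lower in FOG2_OE (horizontal axis, % of the class, adjusted p under 0.05 per the authors' deposited table), for the whole table, for the antisense features and their intron-only and exon-overlapping subsets, and for other classes, with the number called beside each bar. Intron-only features had the longest bar for lower calls, 241 of 4268, and in every class the lower bar is longer than the higher one.

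Within the host the antisense features lay toward the 3′ end. The 2 kb limit removed features close to a gene start, so that their position and their distance from a start were partly set by how they were chosen. Their median position was 76.9% of the way from the host's start to its end. By midpoint, 5166 fell in the last tertile of the host's length or past its end, 2146 in the middle one and 1079 in the first. The called share was 3.76%, 7.74% and 7.23% in these tertiles, beside 5.81% of all features of the table. The median distance from the nearest gene start was 20.1 kb. In 761 cases (9.07%) the feature overlapped a RefSeq long noncoding RNA on either strand. Of these, 9 were higher and 41 lower per the authors' deposited table (6.57%, beside 5.81% of all features). Another listed feature lay on the opposite strand of 99 of the antisense features, of which 4 were called, where 5.81% of all features were.

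Of the called antisense features, the one over Zfpm2 itself was the most abundant in FOG2_OE. MSTRG.29831 ran on the minus strand for 350721 bp (chr15:40752896-41103616) and touched 7 Zfpm2 exons. Its fitted values were 33174, 30172 and 35352 in the FOG2_OE libraries and 34.4, 37.9 and 39.8 in the WT libraries. In CPM (the fitted value scaled to the effective library size) FOG2_OE stood at 416 and WT at 0.484. These fitted values do not show how replicates of a group varied. The log2 fold change was 9.74 (SE 0.31) with an adjusted p of 2.44e-117 per the authors' deposited table. Reads of overexpressed Zfpm2 RNA and of an antisense transcript cannot be told apart here. MSTRG.29830, the other feature in Zfpm2 and 103 bp long in an intron, had 0.0421 CPM in FOG2_OE against 0.0901 CPM in WT. Its log2 fold change of -1.07 was not called (adjusted p = 0.482 per the authors' deposited table).

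Cardiac transcription factor genes, Zfpm2 among them, held 33 features in 11 genes. Of these features 3 were higher, the one over Zfpm2 included, and 1 lower per the authors' deposited table. The called share was 12.1%, beside 5.81% of all features, and the median log2 fold change was 0.31, beside -0.21. MSTRG.27735, in an intron of Gata4, a GATA factor that FOG2 binds, was fitted at 16.5, 15 and 17.6 in FOG2_OE and 1.54, 1.69 and 1.78 in WT. It was higher by a log2 fold change of 3.17 (SE 0.83, adjusted p = 7.81e-04 per the authors' deposited table), and the other 2 Gata4 features were not called. MSTRG.71472, in an intron of Foxp1, a forkhead factor, was higher (log2 fold change 1.43 per the authors' deposited table) and was 1 of 11 in that gene. MSTRG.5056 in Prrx1, a homeobox gene of mesenchymal cells, was the lower one, at 0.00838 CPM in FOG2_OE against 0.105 CPM in WT. The single features in Tbx5 and Gata6 had log2 fold changes of 0.07 and 1.15 per the authors' deposited table and were not called.

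After Zfpm2, the smallest adjusted p among higher calls lay in 2900026A02Rik, a gene of poorly known function, and in Sesn3. MSTRG.66128, 14403 bp in an intron (chr5:113203355-113217757), was fitted at 9727, 8847 and 10366 in FOG2_OE and at 16.0, 17.6 and 18.5 in WT. It had a log2 fold change of 9.08 (SE 0.33) and an adjusted p of 4.89e-111 per the authors' deposited table. MSTRG.66127, which touches a coding exon of the same gene, was at 6.92 CPM in FOG2_OE and at 0 in WT, at least 535-fold higher against a floor of 3 counts over the group. MSTRG.83475 touched 6 exons of Sesn3 (chr9:14309269-14322782), which encodes a stress-induced regulator of TORC1, and stood at 66.4 CPM in FOG2_OE against 0.0781 CPM in WT. Its log2 fold change was 9.70 (SE 0.45), with an adjusted p of 3.32e-91 per the authors' deposited table. The Sesn3 feature and MSTRG.66127 cross exons, and reads of the host mRNA cannot be told apart from them. MSTRG.66128 touched no exon of its host, and reads of unspliced host RNA cannot be told apart from it.

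Other higher features among the 12 with the smallest adjusted p were at lower levels. MSTRG.69033 spanned 5 exons of Tbxas1, thromboxane synthase, and the start of the long noncoding RNA Gm38688, at 3.37 CPM in FOG2_OE against 0.385 CPM in WT (8.75-fold). MSTRG.20161 and MSTRG.20163, in Arel1, an apoptosis-regulating ubiquitin ligase, were 8.21-fold and 10.8-fold higher. MSTRG.29266, in an intron of Cdh12, a cadherin, was at 1.53 CPM in FOG2_OE and 0 in WT, at least 118-fold higher, with an implied biological coefficient of variation of 87.5%. MSTRG.23031 in Phactr1, which regulates actin and phosphatase 1, was at 1.65 against 0.135 CPM. MSTRG.19964 in Actn1, a non-muscle alpha-actinin, was at 0.188 against 0.00433 CPM.

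**Figure D3:**
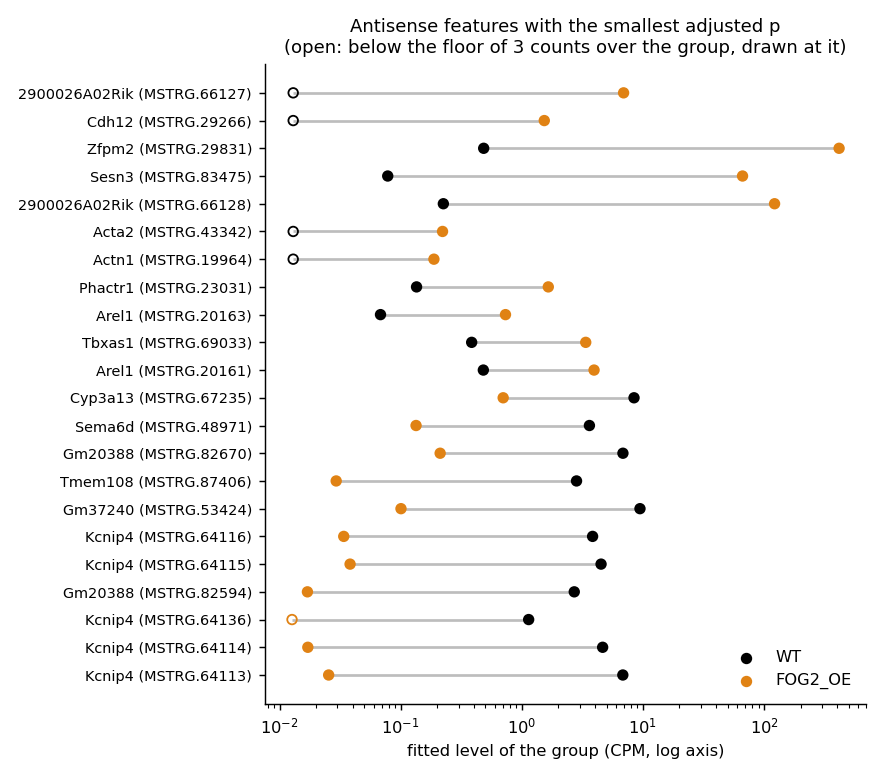
Fitted level in CPM (horizontal log axis) in FOG2_OE and WT of 11 higher and 11 lower antisense features among the 12 of each with the smallest adjusted p per the authors' deposited table, with open symbols for groups below the floor of 3 counts. Each line joins the 2 groups of 1 feature, and all but the Zfpm2 and MSTRG.66128 features among the higher ones shown lie below 100 CPM in both groups.

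Kcnip4 held more lower calls than any other host gene. It encodes a protein that binds Kv4 channels and changes their gating, on the minus strand of chr5:48389502-49524907. All 23 of its antisense features lay in introns, and 19 were lower in FOG2_OE per the authors' deposited table. Those 19 lay 629 to 744 kb from the start of the gene, and the 4 that were not called lay at 1100 to 1110 kb. MSTRG.64113 (chr5:48782298-48790843) was fitted at 2.02, 1.84 and 2.16 in the FOG2_OE libraries and at 485, 535 and 561 in the WT libraries. The log2 fold change was -7.98 (SE 0.69), with an adjusted p of 7.92e-41 per the authors' deposited table. MSTRG.64115, MSTRG.64114 and MSTRG.64116 were at 4.51, 4.65 and 3.84 CPM in WT and at 0.0382, 0.0171 and 0.0338 CPM in FOG2_OE. In FOG2_OE 12 of the 23 stood at 0 and 16 were below the floor of 3 counts, whereas in WT none was below it. Summed over the 19 that were called, the level was 0.136 CPM in FOG2_OE against 24.7 CPM in WT, and over the 4 that were not called it was 0.16 and 0.319 CPM. With 10 residual degrees of freedom 12 of the 19 calls remained. The 19 lie side by side in the gene and are not independent measurements.

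**Figure D4:**
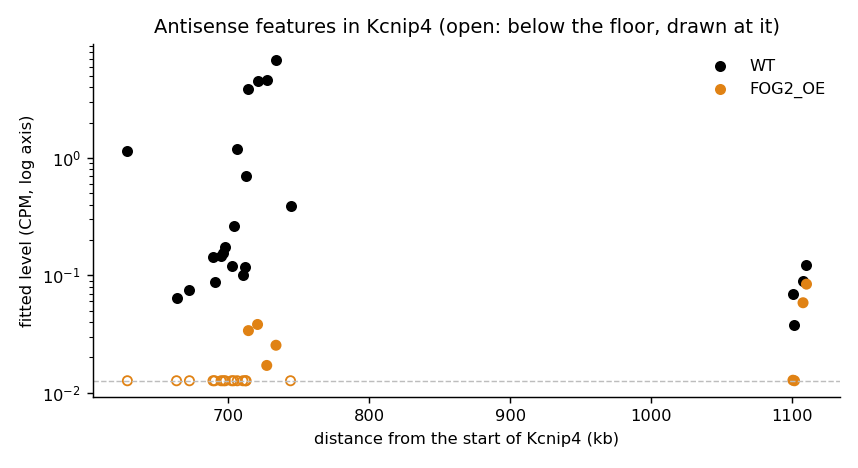
Fitted level in CPM (log axis) of the 23 antisense features of Kcnip4 in FOG2_OE and WT, by distance from the start of the gene in kb. The 19 called lower fall between 629 and 744 kb, and the 4 near 1100 kb show levels closer together in the groups.

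Other single features among the 12 lower ones were spread over different genes. MSTRG.53424, whose start at Gm31210 is printed above, lay in an intron of the readthrough locus Gm37240 and was fitted at 8.0, 7.28 and 8.53 in FOG2_OE and at 672, 741 and 777 in WT (log2 fold change -6.53, SE 0.47, adjusted p = 2.73e-35 per the authors' deposited table). MSTRG.90605, at the Gm32113 start in Frmpd3 and outside the naming rule, was chosen after its values were seen, at 0.230 CPM in FOG2_OE against 2.90 CPM in WT. MSTRG.82594 and MSTRG.82670 lay in Gm20388, a second readthrough locus that covers several genes, and were 160-fold and 32.3-fold lower. MSTRG.87406 in Tmem108, a transmembrane protein gene, was 96.5-fold lower. MSTRG.67235, which overlapped Cyp3a13, a cytochrome P450, was at 0.701 CPM in FOG2_OE against 8.44 CPM in WT. It ran past the end of that gene, and its midpoint lay at 110% of the gene's length from the start. That in Sema6d belongs to a gene group described below.

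Calls were spread over 248 host genes. Of these, 181 held 1, 32 held 2 and 35 held 3 or more, and those 35 held 193 of the 438 calls. In 29 of the 35 every call was lower, in 4 every call was higher, and in Syne1 and Igf1r both directions occurred. After Kcnip4, the host genes with the most lower calls were Rgs13, a regulator of G-protein signalling, with 12 of 14 features lower, and Neb, Lrp1b and Gm20388 with 11 each. The summed level was 0.373 CPM in FOG2_OE against 4.43 CPM in WT for Rgs13, and 0.0545 and 1.37 CPM for Lrp1b, a lipoprotein receptor gene. Prune2 followed with 10 of 18 lower, Thoc1, a subunit of the THO complex of mRNA export, with 8 of 10, and Adra1b, the alpha-1B adrenergic receptor, Fam20a, a secretory pathway pseudokinase, and Tmem108 with 6 each. All 6 Tmem108 features were lower, as were all 5 in Camkk2, a calcium-dependent kinase gene, and all 4 in Tnfsf18, a TNF family ligand. With 10 residual degrees of freedom 54 of the 193 calls remained, in 22 of the 35 genes, among them 8 in Gm20388, 3 in Rgs13, 2 in Thoc1, 1 each in Lrp1b and Prune2, and 0 in Neb, Adra1b and Fam20a. Whether features side by side in 1 host are pieces of 1 transcript was not tested.

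Host genes with only higher calls included Arel1 (3 of 3), Pqlc1 (3 of 5) and Synpr (3 of 34). Synpr encodes a synaptic vesicle protein, and all 34 of its features had a log2 fold change above 0 (median 1.59) per the authors' deposited table, although 31 were not called. Their summed level was 31.6 CPM in FOG2_OE against 9.62 CPM in WT. In Syne1, which encodes a nuclear envelope spectrin-repeat protein, 2 features were higher and 5 lower of 10. In Igf1r, the insulin-like growth factor receptor, 2 were higher and 1 lower of 3. Some genes with many features held few calls: Kirrel3 2 of 60, Iqch 0 of 46, Rnf213 0 of 27 and Pam 0 of 23 per the authors' deposited table. At an unadjusted p under 0.05 in its likelihood ratio test, 0 higher and 4 lower Iqch features, 2 and 4 of Rnf213, and 0 and 7 of Pam were counted.

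**Figure D5:**
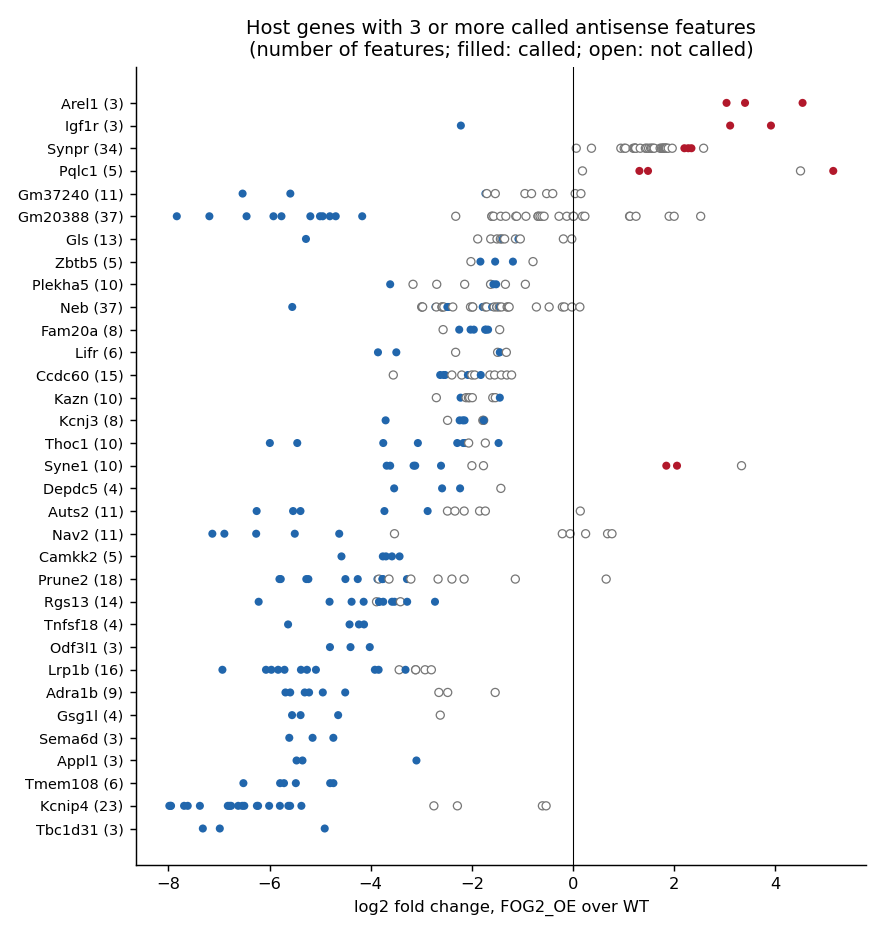
Log2 fold changes per the authors' deposited table of the antisense features in 33 of the 35 host genes with 3 or more called features, 1 line per gene, with called features in colour. The lines for Arel1, Pqlc1 and Synpr lie above 0, Syne1 and Igf1r fall on both sides, and Kcnip4 and Tmem108 are among the lowest.

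Genes of the atrial action potential and rhythm held 32 antisense features in 12 host genes, of which 0 were higher and 9 lower per the authors' deposited table (0 and 13 at an unadjusted p under 0.05 of its likelihood ratio test). Their log2 fold changes had a median of -0.77, beside -0.21 for all features, and 28.1% were called, beside 5.81% of all features. Of the calls, 5 were in Kcnj3, which encodes a subunit of the acetylcholine-activated inward rectifier of the atrium. All 8 Kcnj3 features had a log2 fold change below 0, with a median of -2.16, and their summed level was 2.91 CPM in FOG2_OE against 13.5 CPM in WT. MSTRG.46334, in a Kcnj3 intron, was fitted at 170, 154 and 181 in FOG2_OE and at 718, 791 and 830 in WT (log2 fold change -2.24, SE 0.37, adjusted p = 6.74e-07 per the authors' deposited table). Another call was 1 of 7 features in Cacna1c, the L-type calcium channel gene, whose summed levels were 0.986 CPM in FOG2_OE against 0.861 CPM in WT.

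Calcium handling genes held 56 antisense features, of which 0 were higher and 7 lower (0 and 18 at an unadjusted p under 0.05) per the authors' deposited table. The called share was 12.5%, beside 5.81% of all features, and the median log2 fold change was -0.75, beside -0.21. The most abundant of the 56 was MSTRG.7525, in an intron of Trdn (chr10:33203671-33208617), which encodes triadin of the calcium release complex. Its fitted values were 1106, 1006 and 1178 in FOG2_OE and 4248, 4679 and 4908 in WT. The log2 fold change was -2.10 (SE 0.32), with an adjusted p of 5.17e-08 per the authors' deposited table. Trdn held 1 further lower feature among 5, MSTRG.7523, at 0.159 against 0.448 CPM. Ryr2, the calcium release channel gene, held 29 antisense features, of which 2 were lower, and their sum was 11.1 CPM in FOG2_OE against 18.5 CPM in WT. Atp2a2, the calcium pump of the sarcoplasmic reticulum, held 2 lower of 7, and Camk2d, a calcium-dependent kinase, 1 lower of 2.

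Genes named for the atrium held 52 features, of which 0 were higher and 8 lower (0 and 21 at an unadjusted p under 0.05), with a median log2 fold change of -0.96 per the authors' deposited table. The called share was 15.4%, beside 5.81% of all features. Kcnj3 gave 5 of the 8 and is in both lists. The others were single features in Clu, an extracellular chaperone, at 0.0293 against 0.228 CPM, Dkk3, a secreted Wnt modulator, at 0.00426 against 0.118 CPM, and Fgf12, a sodium channel partner, at 0.0210 against 0.121 CPM.

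Sarcomere genes and their regulators held 195 features, of which 2 were higher and 15 lower per the authors' deposited table, with a median log2 fold change of -0.24. The called share was 8.72%, beside 5.81% of all features, whose median was -0.21. Of the lower calls, 11 were in Neb, the nebulin gene, in which 36 of 37 features had a log2 fold change below 0 and the sum was 12 CPM in FOG2_OE against 36.4 CPM in WT. MSTRG.46452, over Neb coding exons, was at 5.22 CPM in FOG2_OE against 15.8 CPM in WT (log2 fold change -1.60, SE 0.36, adjusted p = 7.22e-04 per the authors' deposited table). The titin gene Ttn held more antisense features than any other gene, 74, and both higher calls of the group, MSTRG.47600 and MSTRG.47603. The summed Ttn level was 47.7 CPM in FOG2_OE against 60.2 CPM in WT. Myocd, a cofactor of serum response factor, held 2 lower features of 7, both at 0 in FOG2_OE. Yet 4 of the 7 had a log2 fold change above 0, and the summed Myocd level was 0.594 CPM in FOG2_OE against 0.548 CPM in WT. Mybpc3 and Nebl held 1 lower feature each.

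Cell adhesion and axon guidance genes held 30 features, with 0 higher and 4 lower (0 and 6 at an unadjusted p under 0.05) per the authors' deposited table and a median log2 fold change of -0.48. The called share was 13.3%, beside 5.81% of all features. All 3 in Sema6d, a transmembrane semaphorin, were lower. MSTRG.48971, which spanned 49571 bp and 3 Sema6d exons, was fitted at 10.7, 9.69 and 11.4 in FOG2_OE and at 257, 283 and 297 in WT, 27.0-fold lower. The fourth call was in Ntm, a neurotrimin gene, at 0.0125 against 0.172 CPM. In energy metabolism genes 1 of 36 features (2.78%) was called, MSTRG.15208 in Acaca, acetyl-CoA carboxylase, which was higher (log2 fold change 2.28 per the authors' deposited table). In fetal and stress genes 0 of 6 were called, and 1 higher and 1 lower had an unadjusted p under 0.05.

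Most of the calls in these gene groups depended on the setting. With 10 residual degrees of freedom 4 of the 9 calls in rhythm and channel genes remained, 1 of 7 in calcium handling genes, 2 of 8 in atrial genes, 0 of 17 in sarcomere genes, 1 of 4 in transcription factors and 2 of 4 in adhesion and guidance genes. With the median ratio centred at 1 the same groups kept 7, 2, 6, 13, 3 and 4 calls. With the median ratio centred at 1 the calls were lost for MSTRG.66579 and MSTRG.66580 in Atp2a2, MSTRG.7523 in Trdn, MSTRG.21959 in Ryr2, MSTRG.55627 in Camk2d, MSTRG.71934 in Cacna1c, MSTRG.33579 in Fgf12, MSTRG.47305 in Mybpc3, MSTRG.44837 in Nebl and MSTRG.5056 in Prrx1. With 10 residual degrees of freedom these were lost too, as were those named in Gata4, Foxp1, Neb, Ttn, Myocd, Clu, Dkk3, Ntm and Acaca and that of MSTRG.21945 in Ryr2. The calls of MSTRG.29831 in Zfpm2 and MSTRG.7525 in Trdn remained in both settings. Of the 5 Kcnj3 calls, 4 remained when centred and 2 with 10 residual degrees of freedom, and of the 3 Sema6d calls 3 and 2 remained.

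Markers of other cell types gave few calls among the antisense features. Fibroblast genes held 33 features with a median log2 fold change of 0.46, endothelial genes 20, macrophage and lymphocyte genes 4, and Schwann and neuron genes 12, and 0 of each were called per the authors' deposited table. Over all features 5.81% were called. At an unadjusted p under 0.05 in its likelihood ratio test the fibroblast features gave 4 higher and 0 lower, the endothelial ones 0 and 1, the macrophage and lymphocyte ones 0 and 0, and the Schwann and neuron ones 1 and 4. The 4 higher fibroblast features were all in Col3a1. The 4 features of smooth muscle and pericyte genes gave 1 higher call. It was MSTRG.43342 in Acta2, smooth muscle actin, 162 bp long over a coding exon, at 0.221 CPM in FOG2_OE against 0.00433 CPM in WT. The others were not called and did not share its direction. The Tagln feature stood at 0.0424 CPM in FOG2_OE against 0.0685 CPM in WT. The 2 in Notch3 had log2 fold changes of 0.93 and -0.23 per the authors' deposited table. No listed feature overlapped the other defining smooth muscle genes searched, Myh11, Rgs5 and Pdgfrb. Summed over listed features, the 5 defining fibroblast genes stood at 3.13 CPM in FOG2_OE against 1.92 CPM in WT, and the 5 endothelial ones at 1.42 and 1.12 CPM. The genes of a sum did not all move together. Col3a1 stood at 2.16 against 1.04 CPM and Col1a1 at 0.211 against 0.069 CPM, but Dcn at 0.759 against 0.810 CPM. Pecam1 stood at 1.11 against 0.690 CPM and Cdh5 at 0.101 against 0.0389 CPM, but Tek at 0.139 against 0.287 CPM and Kdr at 0.0656 against 0.104 CPM. No listed feature overlapped Pdgfra, Tcf21 or Flt1. Features over the 7 defining atrial muscle genes summed to 28.2 CPM in FOG2_OE against 39.8 CPM in WT. Most of that difference lay in Ryr2, at 11.6 CPM in FOG2_OE against 19.3 CPM in WT, and in Sln, at 2.92 against 5.98 CPM. Myl7 stood lower too, at 0.789 CPM in FOG2_OE against 1.98 CPM in WT. Tnnt2 stood at 8.01 and 8.09 CPM, Actc1 at 1.93 and 1.82 CPM and Myl4 at 2.94 and 2.59 CPM. No listed feature overlapped Nppa. The 3 ventricular genes Myl2, Myl3 and Irx4 held none. The part of such shifts in the results above was not tested.

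Of the 27 antisense features with a mean fitted value of at least 1000, 4 were higher and 5 lower per the authors' deposited table. That was 33.3%, beside 5.81% of all features, but the most abundant antisense feature was not called. MSTRG.67751, 384 bp in an intron of Cdk8, a kinase of the Mediator complex, stood at 4455 CPM in FOG2_OE against 1790 CPM in WT, with an adjusted p of 0.128 per the authors' deposited table. The features MSTRG.88325 in Lars2, mitochondrial leucyl-tRNA synthetase, and MSTRG.44533 in Camk1d, a calcium-dependent kinase, stood at 970 and 391 CPM in FOG2_OE. In WT they stood at 627 and 256 CPM, with implied coefficients of variation of 69.3% and 70.1%. MSTRG.23093 in Jarid2, a cofactor of Polycomb complex 2, was at 199.5 and 191 CPM. None of these 3 was called either. Because these few dominate any sum, the summed level of all antisense features was 10320 CPM in FOG2_OE against 7298 CPM in WT, a ratio of 1.41. The 10 most abundant held 70.9% of the FOG2_OE sum and 49.9% of the WT sum. Without them the sums were 3007 and 3654 CPM, a ratio of 0.823, in the other direction.

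A pair of abundant features in Def8 was lower with a high dispersion and was chosen after their values were seen. MSTRG.82877 (chr8:123428911-123429972) lies wholly inside MSTRG.82875 (chr8:123426279-123434056) on the same listed strand, so that they are not independent measurements. MSTRG.82875 and MSTRG.82877, in introns of Def8, a regulator of lysosome positioning, stood at 324 and 116 CPM in WT and at 0.308 and 0.105 CPM in FOG2_OE. Their log2 fold changes were -10.03 (SE 1.37) and -10.08 (SE 1.35), with adjusted p of 4.82e-05 and 2.27e-05 per the authors' deposited table. The implied coefficients of variation were 115% and 112%, where the median over antisense features was 50.4%. The fitted columns do not show in which WT libraries the reads lay.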

How the data were processed

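Total RNA of 6 left atrial libraries was depleted of ribosomal and polyadenylated RNA and sequenced, per the labels' protocols. The submitters' processing notes name the mm10 build and the tools STAR, edgeR, deepTools and HTSeq (0.6.0), without saying which did what. Whether replicates were separate animals is not stated, so that p-values measure only the spread between these libraries.

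The authors' deposited table gave, for each feature, the log2 fold change (FOG2_OE over WT), the log2 of CPM, the likelihood ratio as a score, and raw and adjusted p-values. Its 6 sample columns, deposited as a signal per library, were constant multiples of each other within a group (largest relative spread 1.79e-15). They were read as fitted values and not counts, so that no count test was run in place of the authors' comparison, although one had been planned for counts.

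Effective library sizes were computed from 718 features above 300 fitted counts, and levels are given as CPM of them. For each feature the negative binomial dispersion that gives the deposited likelihood ratio was solved, for ratios of at least 0.1, and otherwise taken from features of like abundance. It gave the implied standard errors and the calls on another scale. This step was tested on simulated data. Folds against a group at 0 are lower bounds, taken against 3 counts over that group (0.0127 CPM in FOG2_OE, 0.0129 CPM in WT), and cover counting error only. Starts in the table count from 0 and are printed counting from 1. A feature within several genes was named by the shortest protein-coding host with a symbol of its own. Positions and exons come from GENCODE M21, and the table gives outer intervals only. Promoter windows are RefSeq's, on GRCm38.p6.

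The antisense features and the 14 gene lists were chosen with earlier results of these data known. The features named were those over Zfpm2, the 12 higher and 12 lower with the smallest adjusted p, the 6 most abundant, at most 2 called features per host gene of each list, host genes with 3 or more calls, and those on either side of the 2 kb limit. Genes with many features, marker genes and features at printed windows are also described. Alternatives were the scale between groups, the reference distribution, the threshold, a filter on low values, the distance limit, introns only and 1 feature per host. Base composition of the features was not analysed here, since no genome sequence was used. Python 3.11.15, numpy 2.4.6, scipy 1.17.1, pandas 2.3.3 and matplotlib 3.10.9 were used. Some features that the naming rule covers are not reported here.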

Additional observations from a re-analysis of the deposited data

How the results depend on the processing

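The counts of 79 higher and 359 lower antisense features stayed within 1.5 times under the distance limits of 1 kb and 5 kb, under the distance from every transcript start, and with the median ratio centred at 1 (107 higher, 257 lower, which moved the share of lower calls from 82.0% to 70.6%). They moved further to 12 and 70 with 10 residual degrees of freedom, to 0 and 0 with 4, and to 37 and 202 at an adjusted p under 0.01. Other settings held fewer features, so that their counts are not on the same base. They gave 27 and 123 of 1730 with a mean fitted value of at least 20, and 42 and 132 with 1 feature for each of 3304 host genes. Introns only gave 47 higher and 241 lower of 4268 (6.75%), beside 5.22% of all antisense features and 5.81% of the whole table. The summed ratio of 1.41 was 1.36 without Zfpm2, 1.64 centred, 1.61 in introns only and 0.823 without the 10 most abundant features. Of 59 named features, 10 lost their call when centred and 23 with 10 residual degrees of freedom, and no called feature reversed in either. MSTRG.44319 in Nanos1, which was not called, went from -0.12 on the log2 scale per the authors' deposited table to 0.10 when centred. No paired analysis was possible because the sample columns hold fitted values with no deviations between replicates. For the same reason leaving out each replicate and the count tests planned as alternatives were not run. Since 79.4% of the antisense features had a mean fitted value under 20, changes of scarce features are imprecise.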
